A study of Mus musculus with 4 samples.

Results

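*Galnt18*, *Tmprss6*, *Tmem273* and *Rasal2* are 4 of the 33696 genes counted in CD45+ cells of mouse KPC tumors. They were chosen from these same data because their levels in T cells were lower after either agonist than in untreated tumors, so that fall is the reason for the choice and is given here as a description with no test. The measurements below ask which cells carry the 4 genes, and whether a few cells or shallow cells hold the difference.

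Single-cell RNA-seq was performed on CD45+ leukocytes sorted from subcutaneous KPC tumors of male C57BL/6 young adult mice with an intact immune system. KPC cells come from a mouse pancreatic tumor whose alleles were switched on by *Pdx1*-Cre. Mice were left untreated, received the STING agonist ADU-S100 once into the tumor, received the agonistic antibody 4H8 against the lymphotoxin-β receptor (anti-LTβR) by repeated intraperitoneal injection, or received both (combination), and tumors were taken at the end of the treatment schedule. Tumors were pooled per group before sorting, so that each group is 1 library with no replicate, and no difference below can be set against the spread between mice. The study describes more than 1 mouse experiment, and which of them these libraries hold is not given in the sources used here. Sets of 4 values are in the order untreated, ADU-S100, anti-LTβR and combination.

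STING senses cyclic dinucleotides and drives type I interferon, while the lymphotoxin-β receptor organizes lymphoid stroma and high endothelial venules. CD8+ T cells that meet antigen in a tumor for a long time enter a state called exhaustion, with several inhibitory receptors on the cell and loss of the naive and memory program that depends on *Tcf7*. *Galnt18* belongs to the family of polypeptide GalNAc transferases, which start O-linked glycosylation. *Tmprss6* encodes matriptase-2, a transmembrane serine protease known from the liver, where it cleaves hemojuvelin and lowers hepcidin. *Rasal2* encodes a Ras GTPase-activating protein, and *Tmem273* encodes a transmembrane protein of little known function.

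Because the 4 genes were lower together, the promoters held by the RefSeq table (GRCm38.p6) were read, and 2 of the 4 genes were matched by symbol, *Tmem273* and *Rasal2* (*Galnt18* and *Tmprss6* were not matched). Each sequence is the 250 bases before the start of the gene, from 5′ to 3′ on the strand of the gene, and capitals mark the motif found.
Tmem273, chr14:32785713-32785962, plus strand: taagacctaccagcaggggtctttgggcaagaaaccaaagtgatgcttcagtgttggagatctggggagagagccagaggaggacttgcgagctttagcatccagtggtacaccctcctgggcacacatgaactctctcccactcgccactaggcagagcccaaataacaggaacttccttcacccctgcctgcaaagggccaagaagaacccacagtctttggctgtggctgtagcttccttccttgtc
Rasal2, chr1:157412596-157412845, minus strand: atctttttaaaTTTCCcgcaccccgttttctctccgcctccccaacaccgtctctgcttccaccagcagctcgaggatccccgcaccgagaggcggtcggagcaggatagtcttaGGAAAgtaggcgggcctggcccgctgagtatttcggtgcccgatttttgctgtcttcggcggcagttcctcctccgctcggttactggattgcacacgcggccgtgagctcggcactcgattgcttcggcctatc
Both strands were searched for the RUNX motif TGTGGT, the AP-1 motif TGANTCA, the NFAT core GGAAA and the ETS motif CCGGAA. The *Rasal2* window held the NFAT core 2 times and the *Tmem273* window held none of the 4 motifs. Of all 32851 promoter windows of this length, 55.6% held the NFAT core, 14.0% the RUNX motif, 6.75% the AP-1 motif and 12% the ETS motif. The NFAT core is thus found in most windows, and a match is only a description of the letters.

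The deposited matrices held 8730 to 16322 cells and 52109958 to 85855398 UMIs (unique molecular identifiers, each standing for 1 captured RNA molecule) per library. The combination library was the shallowest, with a median of 2157.5 UMIs per cell against 3187 to 4712 in the other libraries. After the limits on cells, clusters with T cell markers held 1396, 599, 2026 and 1671 cells, called T class cells here, with 10 of 10 T markers raised in 5 of 8 clusters. The libraries shared 34 to 83 cell barcodes per pair. Levels are given as CPM, the UMIs of a gene per 1000000 UMIs of the same cells, and every interval covers counting error only.

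In T class cells, all 4 genes were at their highest level in the untreated library. *Galnt18* had 688, 14, 256 and 181 UMIs, which is 122, 5.53, 38.2 and 53.9 CPM. It was 22.1-fold lower after ADU-S100 (log2 ratio -4.46, 95% interval -5.34 to -3.71), 3.20-fold lower after anti-LTβR (-1.68, -1.89 to -1.47) and 2.26-fold lower after the combination (-1.18, -1.42 to -0.94). The ADU-S100 library is the low one for this gene, and adding anti-LTβR went with a higher level than ADU-S100 alone (log2 ratio 3.29, 2.50 to 4.19).

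*Tmprss6* had 389, 33, 156 and 107 UMIs, or 69.0, 13, 23.3 and 31.9 CPM. Against untreated, ADU-S100 gave a log2 ratio of -2.40 (-2.96 to -1.89), anti-LTβR gave -1.57 (-1.85 to -1.30) and the combination gave -1.11 (-1.44 to -0.80). The order of the libraries was the same as for *Galnt18*, with the combination above each agonist alone, although the combination differed little from anti-LTβR (0.45, 0.09 to 0.82). *Tmem273* had 218, 27, 90 and 82 UMIs, or 38.7, 10.7, 13.4 and 24.4 CPM, and log2 ratios of -1.86 (-2.49 to -1.28), -1.53 (-1.90 to -1.17) and -0.66 (-1.05 to -0.29). The intervals of its levels overlapped between the ADU-S100 library (7.03 to 15.5 CPM) and the anti-LTβR library (10.8 to 16.5 CPM).

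*Rasal2* had a different order. Its UMIs were 184, 45, 58 and 59, or 32.6, 17.8, 8.65 and 17.6 CPM, so that anti-LTβR was the lowest library. Against untreated, anti-LTβR gave -1.92 (-2.37 to -1.48), while ADU-S100 (-0.88, -1.38 to -0.40) and the combination (-0.89, -1.34 to -0.46) were close to each other. For *Rasal2* the ratio of the combination to ADU-S100 had an interval that included 0 (-0.02, -0.60 to 0.58).

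**Figure D1:**
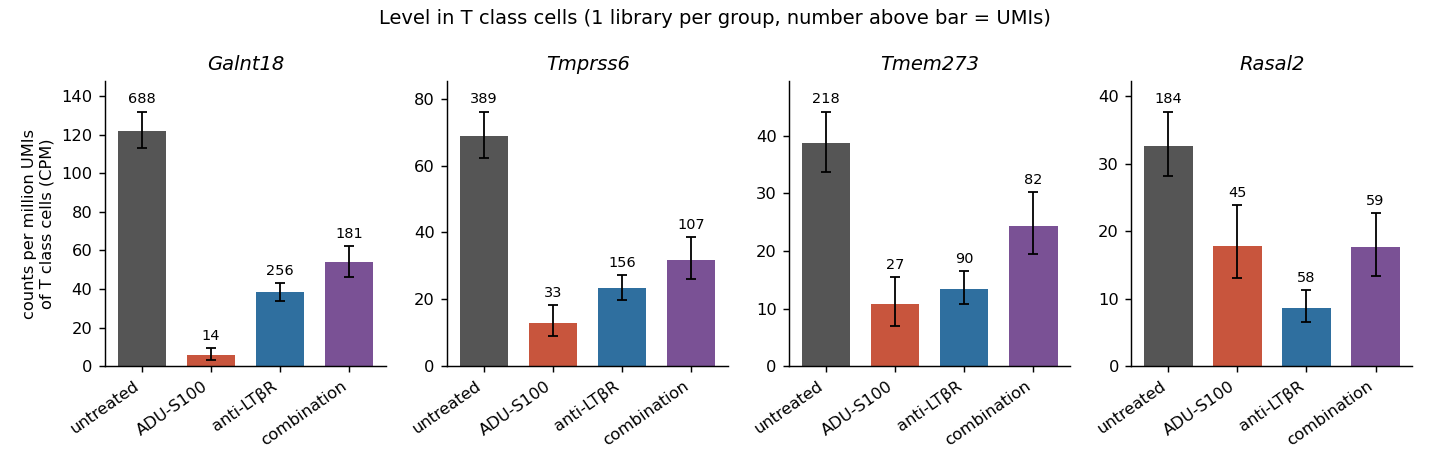
Level of each gene in T class cells, in CPM of these cells, with 1 bar per library, exact Poisson 95% intervals as error bars and the number of UMIs above each bar. The untreated bar is the highest in every panel, ADU-S100 is the lowest for *Galnt18* (5.53 CPM), *Tmprss6* (13 CPM) and *Tmem273* (10.7 CPM), and anti-LTβR is the lowest for *Rasal2* (8.65 CPM).

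For scale, 0.992% of 6151 genes with at least 200 UMIs over both libraries were lower by 2-fold or more after ADU-S100, and 0.634% were higher. After anti-LTβR these shares were 0.706% and 0.813% of 7503 genes, and after the combination 0.553% and 0.922% of 6506 genes. Of the 4 genes, 3, 4 and 2 passed 2-fold in these comparisons, a count that the choice of the genes fixes. Ranked from the lowest ratio, *Galnt18* stood at 2, 7 and 22, *Tmprss6* at 7, 11 and 30, *Tmem273* at 13, 12 and 131 and *Rasal2* at 90, 3 and 52. The median log2 ratio over all genes was -0.06, 0.00 and -0.05, so the scale itself moved little.

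CD8 cells carried most of the signal. T class cells were split by UMIs of marker genes into CD8 cells (517, 210, 652 and 672), CD4 cells (177, 85, 319 and 163), *Foxp3* positive regulatory cells (166, 50, 119 and 53) and gamma-delta cells (38, 14, 54 and 37). The rest are called unassigned T cells (498, 240, 882 and 746). They showed none of these markers or a mix of markers that belongs to none of these subsets. CD8 cells were 37.0, 35.1, 32.2 and 40.2% of T class cells.

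In CD8 cells *Galnt18* had 552, 14, 174 and 137 UMIs, which is 80.2% of its T class UMIs in the untreated library. *Tmprss6* had 343, 25, 127 and 80 UMIs there, *Tmem273* 165, 19, 64 and 68, and *Rasal2* 146, 31, 45 and 48. Unassigned T cells held nearly all the remainder, with 133, 39, 45 and 37 UMIs of *Galnt18*, *Tmprss6*, *Tmem273* and *Rasal2* in the untreated library.

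CD4, *Foxp3* positive and gamma-delta cells were close to empty for all 4 genes. Over these 3 subsets in the untreated library, no gene had more than 6 UMIs in a subset. *Galnt18* had 1 UMI in 177 CD4 cells and 2 UMIs in 166 *Foxp3* positive cells. It had 0 UMIs in 38 gamma-delta cells, which allows a share of up to 7.89% of cells with a UMI. *Rasal2* had 0 UMIs in the *Foxp3* positive cells of every library, which allows up to 1.81% in the untreated library and up to 6.00% in the ADU-S100 library. These limits are 3 counts of the total. As a level, 3 UMIs are 4.75 CPM in the untreated *Foxp3* positive cells and 30.1 CPM in the untreated gamma-delta cells, so lower levels were not detectable there. In a wider gamma-delta set, all T class cells with a *Trdc* UMI, *Galnt18* had 0 UMIs in every library. In that set *Rasal2* had 0, 2, 7 and 2 UMIs, *Tmem273* 0, 0, 5 and 1 and *Tmprss6* 2, 0, 1 and 1. The 7 *Rasal2* UMIs after anti-LTβR, in 186 cells, are 10.6 CPM (4.26 to 21.9).

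Within CD8 cells the ratios stayed close to those of the whole T class. *Galnt18* was at 196, 12.9, 64.5 and 82.8 CPM in CD8 cells, with log2 ratios of -3.93 (-4.81 to -3.17), -1.61 (-1.86 to -1.36) and -1.25 (-1.53 to -0.97). *Tmprss6* gave -2.41, -1.37 and -1.34, *Tmem273* -1.75, -1.31 and -0.51, and *Rasal2* -0.86, -1.64 and -0.84. For *Tmprss6* in CD8 cells, the ratio of the combination to anti-LTβR had an interval that included 0 (0.04, -0.38 to 0.45).

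**Figure D2:**
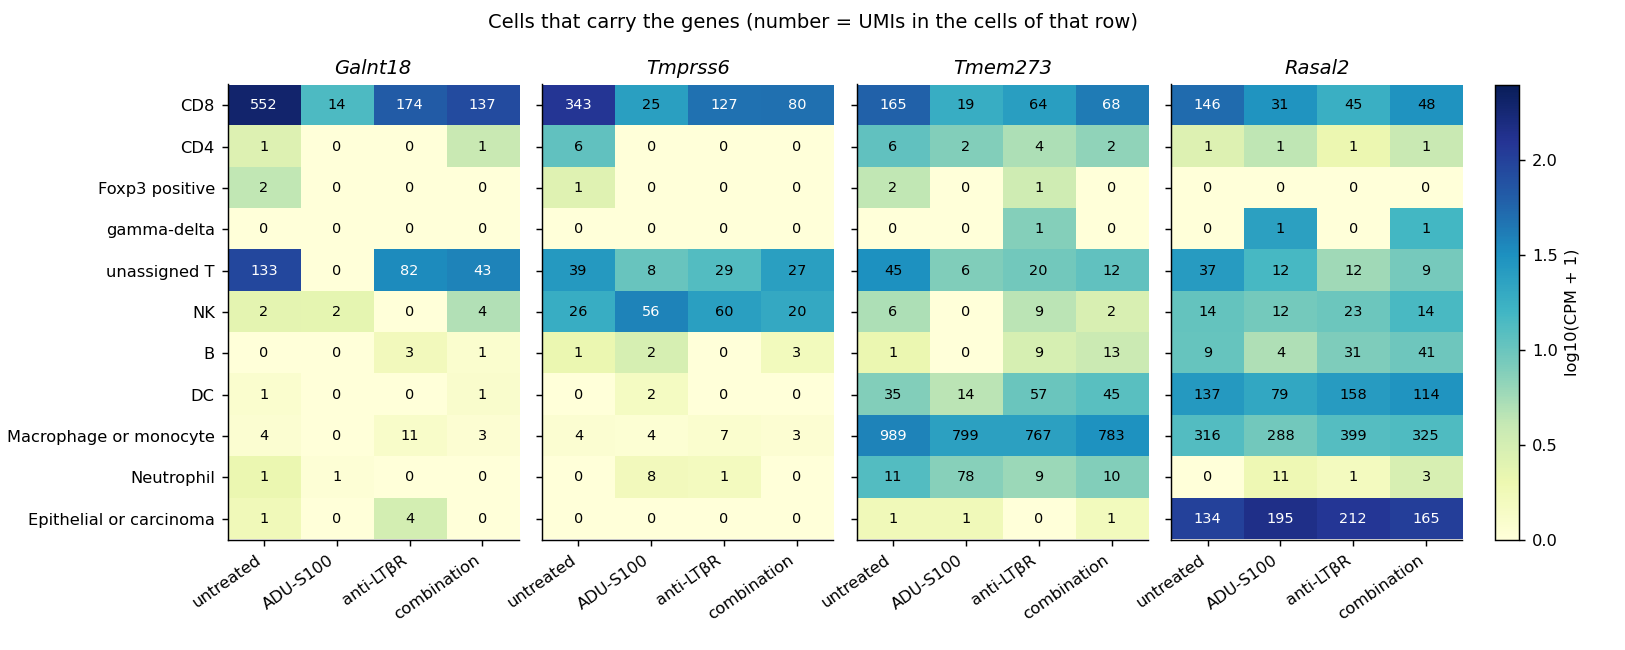
UMIs of each gene (numbers) in each cell group (rows) and library (columns), with color for log10(CPM + 1). *Galnt18* and *Tmprss6* stand in CD8 and unassigned T cells, with *Tmprss6* also in NK cells, whereas *Tmem273* has its most UMIs in macrophages or monocytes (989 in the untreated library) and *Rasal2* is also in carcinoma cells (134) and dendritic cells (137).

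The name of T cell genes holds for *Galnt18* and in part for *Tmprss6*. T class cells held 98.0, 70.0, 93.4 and 95.3% of the *Galnt18* UMIs of kept cells, where the ADU-S100 value is 14 of 20 UMIs. They held 92.4, 31.1, 69.3 and 78.7% of the *Tmprss6* UMIs, and NK cells held 52.8% of them after ADU-S100. Macrophages or monocytes, which serve as a measure of free RNA for these genes, had a *Galnt18* UMI in 0.107% and a *Tmprss6* UMI in 0.107% of cells at a median depth of 6330 UMIs, against 16.8% and 28.4% of CD8 cells at a median depth of 4766 UMIs. Both genes were thus above that background in CD8 cells, whereas macrophages or monocytes carried *Tmem273* and *Rasal2* themselves.

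NK cells carried *Tmprss6* in a different order from CD8 cells. They had 26, 56, 60 and 20 *Tmprss6* UMIs, or 17.8, 37.0, 22.9 and 19.2 CPM. ADU-S100 was the high library there (log2 ratio 1.06, 0.36 to 1.79), while in CD8 cells it was the low one (-2.41). *Galnt18* was close to empty in NK cells, with 2, 2, 0 and 4 UMIs.

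*Tmem273* was mostly a myeloid gene by UMIs. Macrophages or monocytes held 989, 799, 767 and 783 UMIs, or 37.4, 22.4, 22.4 and 29.8 CPM, with log2 ratios of -0.74 (-0.87 to -0.60), -0.74 (-0.87 to -0.60) and -0.33 (-0.47 to -0.19). *Tmem273* was therefore also highest in the untreated library in this class. Its ratios were nearer to 0 than in CD8 cells, but for the combination the intervals overlapped and the difference was not tested. The make-up of the class also differed, since cluster 1 held 574, 1655, 1934 and 1461 of its 3743, 4696, 6508 and 7566 cells. The part of this in the levels was not tested. In dendritic cells *Tmem273* had 35, 14, 57 and 45 UMIs, lowest after ADU-S100 and above untreated after the combination (0.74, 0.07 to 1.42). The make-up of these cells differed too. Cluster 22, with only 3 of 12 dendritic cell markers raised, held 35, 19, 205 and 252 of the 687, 519, 994 and 1025 dendritic cells. The part of this in the *Tmem273* level was not tested.

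*Rasal2* was carried by the most kinds of cells. Carcinoma cells that passed the CD45 sort held 134, 195, 212 and 165 UMIs, or 99.6, 142, 117 and 104 CPM, with ADU-S100 the highest (0.51, 0.19 to 0.84). Dendritic cells held 137, 79, 158 and 114 *Rasal2* UMIs, and macrophages or monocytes 316, 288, 399 and 325. After ADU-S100 the level was below untreated in macrophages or monocytes (8.09 against 12 CPM, log2 ratio -0.56, -0.80 to -0.33) and in dendritic cells (19.6 against 26.1 CPM, -0.41), as in T cells. The anti-LTβR library, lowest for *Rasal2* in T cells, was near untreated in macrophages or monocytes (-0.03, -0.25 to 0.18) and in dendritic cells (-0.06, -0.40 to 0.28).

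Many cells carried each gene in the untreated library, while *Galnt18* after ADU-S100 rested on few. Cells with a UMI numbered 115, 5, 53 and 59 for *Galnt18*, 176, 20, 72 and 65 for *Tmprss6*, 130, 19, 70 and 66 for *Tmem273* and 102, 29, 43 and 41 for *Rasal2*. *Galnt18* came in bursts, with up to 61 UMIs in 1 untreated cell, 20 untreated cells of 10 or more UMIs, and 18 cells that held 50% of its untreated UMIs. The other genes were spread thinly, since the cell with most UMIs had 14 for *Tmprss6*, 6 for *Tmem273* and 8 for *Rasal2* in the untreated library.

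After ADU-S100, *Galnt18* rested on 5 cells, of which 3 held 78.6% of its 14 UMIs. Without the 3 cells of most UMIs in each library, 579 untreated and 3 ADU-S100 UMIs of *Galnt18* remained, and the log2 ratio went from -4.46 to -6.43. For *Tmprss6* the same step gave -2.91, -1.65 and -1.20, for *Tmem273* -2.18, -1.61 and -0.72, and for *Rasal2* -1.09, -1.97 and -1.13. The step took a larger share of the UMIs from each agonist library than from untreated, so lower ratios follow from the step itself. In the untreated library those 3 cells held 15.8% of the *Galnt18*, 8.48% of the *Tmprss6*, 7.34% of the *Tmem273* and 12% of the *Rasal2* UMIs, so most untreated UMIs lay in other cells.

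The libraries were also compared at equal depth. T class cells under 1000 UMIs were 6.30, 7.35, 9.18 and 22.4%, most frequent in the combination library. The share of T class cells with a *Galnt18* UMI was 8.24, 0.835, 2.62 and 3.53%. With each cell thinned to 1000 UMIs, and with 88, 44, 186 and 374 shallower cells left out, it was 4.51, 0.360, 1.74 and 2.70%. For *Tmprss6* the share went from 12.6, 3.34, 3.55 and 3.89% to 4.59, 1.44, 1.58 and 2.62%. Both genes kept the untreated library highest at equal depth, although the thinned intervals of untreated and the combination overlapped for *Galnt18* (3.45 to 5.78% and 1.89 to 3.73%) and for *Tmprss6* (3.52 to 5.87% and 1.82 to 3.64%).

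By the share of cells with a UMI, thinning brought the combination nearer to untreated, while by thinned UMIs the log2 ratio of *Galnt18* was farther from 0 (-1.41 against -1.18). The share for *Tmem273* was 9.31, 3.17, 3.46 and 3.95% before thinning and 2.52, 0.721, 0.815 and 2.39% after it. The thinned shares of the untreated library (1.74 to 3.53%) and of the combination (1.63 to 3.38%) thus overlapped almost fully. For *Rasal2* the share was 7.31, 4.84, 2.12 and 2.45% before and 2.52, 1.80, 0.543 and 1.54% after thinning, and only the anti-LTβR interval (0.261 to 0.997%) lay clear of the untreated one (1.74 to 3.53%).

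CD8 cells of at least 4000 and under 8000 UMIs, a range held by 246, 91, 229 and 73 cells, were also compared without thinning. Of these, 19.5, 3.30, 7.42 and 16.4% had a *Galnt18* UMI and 32.9, 4.40, 11.4 and 15.1% a *Tmprss6* UMI. The share with a *Tmem273* UMI was 22.0, 5.49, 10.9 and 15.1%, and with a *Rasal2* UMI 15.4, 11, 8.73 and 5.48%. The untreated library was again highest for each gene. For *Rasal2* the combination was lowest here, with 4 of 73 cells, while anti-LTβR was lowest after thinning, which covered all T class cells. The *Rasal2* intervals of ADU-S100 (5.40 to 19.3%), anti-LTβR (5.42 to 13.2%) and the combination (1.51 to 13.4%) each overlapped that of untreated (11.2 to 20.6%). For *Galnt18* the intervals of untreated (14.8 to 25.0%) and the combination (8.79 to 27.0%) overlapped. So did those of *Tmem273* (16.9 to 27.7% and 7.77 to 25.4%).

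The shallowest deposited cells carried none of the 4 genes. Cells with fewer than 300 genes numbered 52, 46, 31 and 51 and held 0 UMIs of all 4 genes, and none of them had the T cell marker UMIs asked of a T cell. Over all deposited cells, with T cells set per cell by marker UMIs, the log2 ratios were -4.04, -1.50 and -1.17 for *Galnt18*, -2.39, -1.35 and -1.03 for *Tmprss6*, -1.61, -1.35 and -0.40 for *Tmem273* and -0.55, -1.60 and -0.96 for *Rasal2*.

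CD8 cells were also counted by how many of the 4 genes they showed, a count that is higher in the untreated library through the choice of the genes. At least 1 of them was found in 45.1, 17.1, 20.1 and 19.6% of CD8 cells, and 2 or more in 24.0, 6.19, 7.36 and 5.21%. All 4 were found together in 9, 0, 2 and 1 CD8 cells. In NK cells 2 or more were found in 0.244, 0.276, 0.742 and 0%, the last allowing up to 0.514%.

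Over the 4 libraries, 183, 272, 215 and 167 CD8 cells had a UMI of *Galnt18*, *Tmprss6*, *Tmem273* and *Rasal2*. These cells were deeper than other CD8 cells, with a median of 4991, 5295, 5144 and 4979 UMIs against 3201 to 3286 in the others, so they were compared with other CD8 cells of like depth. *Tmprss6* was in 53.0% (45.5 to 60.4%) of *Galnt18* cells against 16.2% of other CD8 cells. It was in 43.3% of *Tmem273* cells against 17.0%, and in 35.3% of *Rasal2* cells against 17.9%. *Galnt18* was in 28.8% of *Tmem273* cells against 9.87% and in 26.9% of *Rasal2* cells against 10.1%. These shares pool libraries that differ in each gene by the choice of the genes. Within the untreated library alone, *Tmprss6* was in 69.0% (58.1 to 78.5%) of *Galnt18* cells against 24.8% at like depth, in 56.2% of *Tmem273* cells against 27.8% and in 49.4% of *Rasal2* cells against 27.1%.

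The cells that carried the genes showed the exhaustion genes. Of 12 genes of inhibitory receptors and exhaustion, *Galnt18* cells had 11, *Tmprss6* cells 11, *Tmem273* cells 11 and *Rasal2* cells 10 with the interval above the share in other CD8 cells of like depth. *Pdcd1*, which encodes the inhibitory receptor PD-1, was in 85.2% of *Galnt18* cells against 59.9%, and *Havcr2* (TIM-3) in 71.0% against 44.5%. *Tox*, a transcription factor of the exhausted state, was in 96.7% of *Tmprss6* cells against 77.1%, and *Lag3* in 79.0% against 48.2%. *Entpd1* (CD39) was in 72.6% of *Tmem273* cells against 42.1% and in 73.1% of *Rasal2* cells against 41.5%. The 4 libraries were pooled in these shares, and the untreated library alone gave 10, 11, 9 and 8 of the 12 genes above, with *Pdcd1* in 93.1% (85.6 to 97.4%) of *Galnt18* cells against 77.1%. *Cd160* was an exception, since this inhibitory receptor was found, over all libraries, in 15.8% of *Tmprss6* cells against 22.5%, below the others.

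The same cells had the naive and memory genes less often, since all 8 genes of that list were below other CD8 cells of like depth for each of the 4 genes, with the interval below. In the untreated library alone this held for 7, 8, 8 and 8 of the 8. *Tcf7*, the transcription factor that keeps T cells able to renew, was in 0.546% of *Galnt18* cells against 28.6%, in 1.10% of *Tmprss6* cells against 29.2%, in 2.33% of *Tmem273* cells against 30.5% and in 5.39% of *Rasal2* cells against 28.0%. *Il7r*, the interleukin 7 receptor, was in 13.7% of *Galnt18* cells against 47.1%. Of the 8 cytotoxic genes, 5, 6, 6 and 5 were above other cells of like depth for *Galnt18*, *Tmprss6*, *Tmem273* and *Rasal2* cells, among them *Prf1* (perforin) in 87.4% of *Galnt18* cells against 58.0%. In the untreated library alone the count above was only 1, 4, 3 and 2, with 1 gene below for *Tmprss6* and for *Rasal2* cells.

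**Figure D3:**
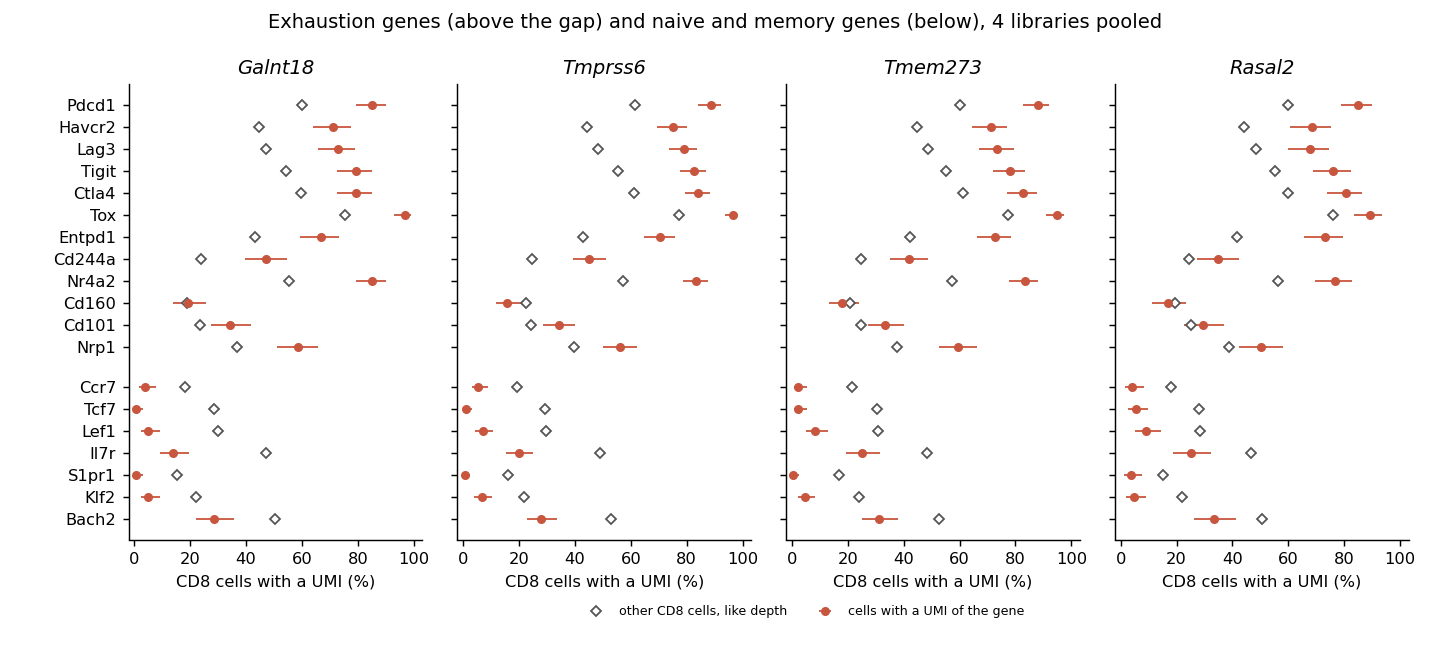
Share of CD8 cells with a UMI of each exhaustion gene (upper rows) and of 7 naive or memory genes (lower rows), in cells with a UMI of the gene named above the panel (filled points, exact binomial 95% intervals) and in other CD8 cells of like depth (open diamonds), with the 4 libraries pooled. *Pdcd1* is in 85.2% of *Galnt18* cells against 59.9% of others, while *Tcf7* is in 0.546% against 28.6%.

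CD8 cells were then counted by how many of the 12 exhaustion genes had a UMI. Cells with 4 or more were 81.0, 62.4, 48.3 and 47.2% of CD8 cells, a share that depends on depth. They held 552 of 552, 14 of 14, 170 of 174 and 130 of 137 CD8 UMIs of *Galnt18*, and 342, 25, 125 and 78 of those of *Tmprss6*. The CD8 cells with fewer such genes held 0 *Galnt18* UMIs in the untreated and ADU-S100 libraries, while 69 cells with 2 such genes in the combination held 5 (30.2 CPM).

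Within the cells of 4 or more exhaustion genes, the levels still differed. *Galnt18* was at 225, 17.8, 110 and 146 CPM, *Tmprss6* at 139, 31.7, 80.8 and 87.8 CPM, *Tmem273* at 66.5, 24.1, 40.1 and 69.8 CPM and *Rasal2* at 58.3, 38.0, 25.2 and 46.2 CPM. The untreated library was highest for *Galnt18*, *Tmprss6* and *Rasal2*, while for *Tmem273* the combination was at the level of untreated. ADU-S100 remained low for *Galnt18*, *Tmprss6* and *Tmem273*, and anti-LTβR for *Rasal2*.

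**Figure D4:**
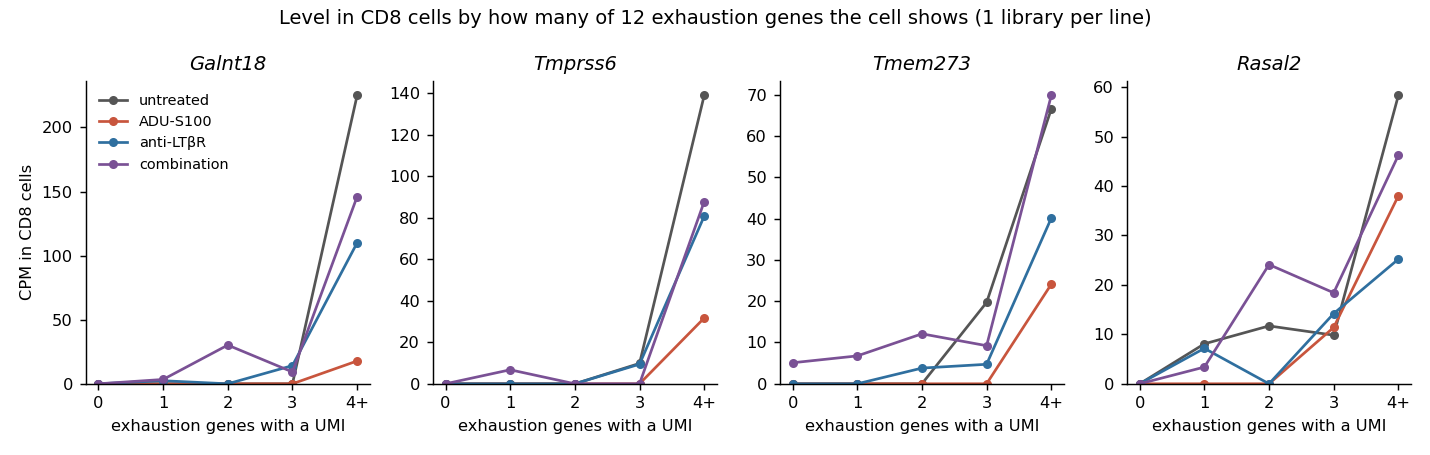
Level of each gene in CD8 cells (CPM) by the number of the 12 exhaustion genes with a UMI in the cell, with 1 line per library. All 4 genes are highest in cells with 4 or more exhaustion genes in every library, where *Galnt18* reaches 225 CPM in untreated and 17.8 CPM in ADU-S100.

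When the T class levels of cells with 0, 1, 2 and 3 or more exhaustion genes were weighted as in the untreated library, the combination moved nearest to untreated. Its log2 ratios became -0.52 for *Galnt18*, -0.44 for *Tmprss6*, -0.07 for *Tmem273* and -0.39 for *Rasal2*. ADU-S100 stayed at -4.32, -2.28, -1.76 and -0.77 in the same order of genes, and anti-LTβR at -1.24, -1.11, -1.14 and -1.65. The number of exhaustion genes with a UMI depends on depth. CD8 cells with 4 or more of them had a median of 5291, 5388, 4392 and 2372 UMIs. Cells of like number thus need not be in like state across the libraries. In CD8 cells with 2 or more exhaustion genes, the intervals of *Tmem273* (-0.16, -0.60 to 0.26) and *Rasal2* (-0.44, -0.95 to 0.04) included 0 for the combination. Weighting by T cell subset in place of state left *Galnt18* at -4.25, -1.57 and -1.25 and *Rasal2* at -0.81, -1.75 and -0.94.

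**Figure D5:**
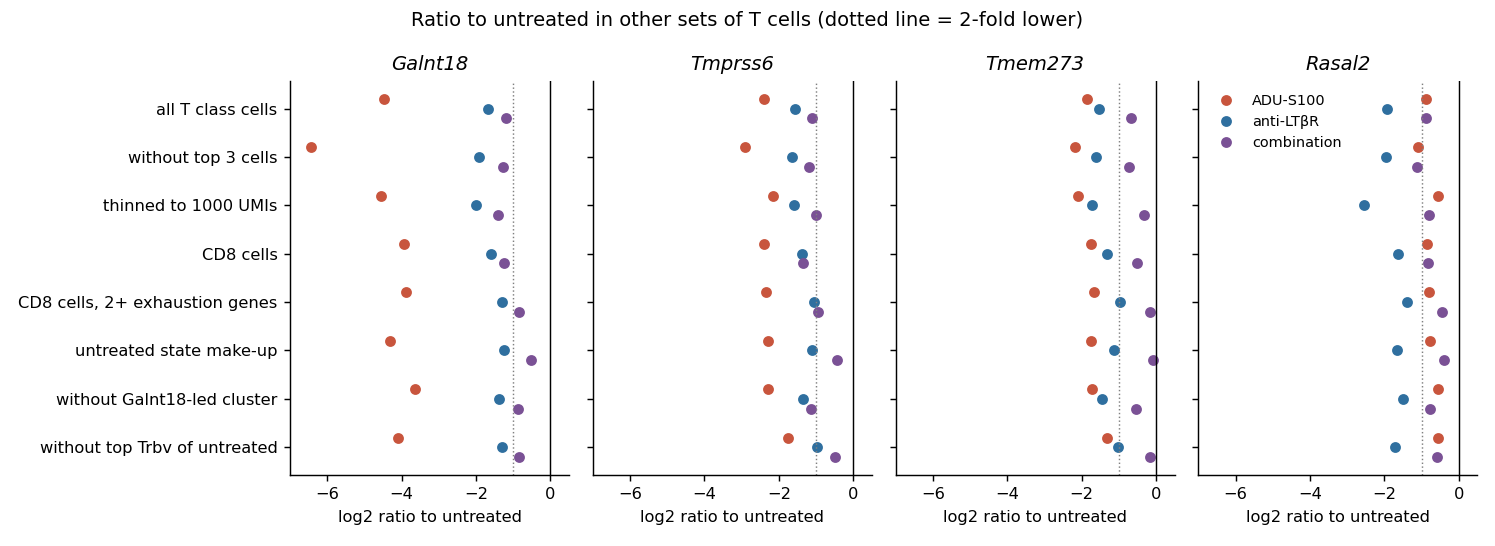
Log2 ratio of each gene to untreated in T class cells and in other sets of T cells (rows), with 1 point per agonist group and a dotted line at 2-fold lower. Every point lies below 0, and the combination comes closest to 0 with the untreated make-up of states, where *Tmem273* is at -0.07.

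The leading β chain V gene of the cells that carried *Galnt18* differed between the libraries. In the untreated library, *Trbv13-3* was the β chain gene of 45 of 66 *Galnt18* CD8 cells with a *Trbv* UMI (68.2%), against 24.6% of other CD8 cells. After anti-LTβR it was *Trbv19* in 21 of 29 *Galnt18* cells (72.4% against 13.7%), and after the combination *Trbv3* in 16 of 26 (61.5% against 19.4%). After ADU-S100, 3 of 3 *Galnt18* cells had *Trbv20*, found in 2.29% of other CD8 cells.

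The same genes led in the cells of the other members in these 3 libraries, but not after ADU-S100, where *Trbv29* (3 of 10 *Tmprss6* cells), *Trbv3* (3 of 6 *Tmem273* cells) and *Trbv26* (3 of 11 *Rasal2* cells) led. *Trbv13-3* was in 59.5, 56.2 and 51.6% of *Tmprss6*, *Tmem273* and *Rasal2* CD8 cells of the untreated library, *Trbv19* in 60.5, 47.2 and 28.0% after anti-LTβR, and *Trbv3* in 44.4, 35.7 and 38.9% after the combination. The leading α chain gene did not differ, since it was *Trav14d-3-dv8* for each of the 4 genes in every library, but it was also frequent in other CD8 cells. For *Galnt18* it was in 70.6, 100, 92.9 and 50% of 51, 2, 14 and 4 cells against 39.7, 31.5, 31.1 and 23.8% of other CD8 cells, and for *Tmprss6* in 65.8, 77.8, 76.5 and 33.3% of 79, 9, 17 and 6 against 36.5, 28.2, 31.9 and 24.4%. Without CD8 cells of *Trbv13-3*, the leading gene of the untreated library alone, in all libraries, *Galnt18* gave log2 ratios of -4.11, -1.31 and -0.84, *Tmprss6* -1.76, -0.98 and -0.49, *Tmem273* -1.33, -1.03 and -0.15, and *Rasal2* -0.56, -1.73 and -0.60. Since tumors were pooled, clones of single mice and the agonist groups cannot be told apart. V genes with near-identical copies are uncertain in such counts.

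Of the 8 T class clusters, cluster 13, led by *Cd8a*, *Lag3* and *Pdcd1*, held 373, 124, 320 and 335 cells and 322, 12, 158 and 114 *Galnt18* UMIs. Cluster 28, whose first leading gene was *Galnt18* itself, held 133, 35, 36 and 81 cells and 313, 0, 78 and 55 *Galnt18* UMIs. It took 9.53, 5.84, 1.78 and 4.85% of T class cells, and its median share of UMIs from ribosomal protein genes was 0.496, 0.432, 0.454 and 0.748%, against 13.7 to 15.9% over the T class. Since *Galnt18* helped define this cluster, its values there are a description, and the part of this low ribosomal share in the levels was not tested. Without cluster 28, *Galnt18* gave log2 ratios of -3.63, -1.39 and -0.86, with the untreated library still highest. Cluster 28 also held 24.4% of the *Tmprss6*, 22.0% of the *Tmem273* and 34.8% of the *Rasal2* UMIs of untreated T class cells.

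Relatives of *Galnt18* and *Rasal2* with enough UMIs were compared, and 0 passed 2-fold, which is near the 0.553 to 0.992% of all genes that were lower. Of 21 genes of GalNAc transferases and core 1 enzymes, 10 had enough UMIs in T class cells, and *Galnt18* was the only one past 2-fold in each of the 3 comparisons. *Galnt1*, for example, was at 164, 163, 169 and 155 CPM. The median log2 ratio of the list, which includes *Galnt18* itself, was -0.09, 0.06 and -0.17, against -0.06, 0.00 and -0.05 over all genes.

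*Tmprss6* was the only one of 18 type II transmembrane serine proteases with enough UMIs, so none of its relatives was compared. Of the hepcidin axis, in which *Tmprss6* acts in the liver, *Hjv* had 0 UMIs in T class cells of every library and *Hamp* had 1, 0, 0 and 0, while *Tfrc*, the transferrin receptor, was at 55.4, 60.0, 45.5 and 43.5 CPM. Of the hepcidin axis list 2, 4 and 2 genes were compared and 0 passed 2-fold. Of 9 other Ras GTPase-activating proteins, 5 were compared and 0 passed 2-fold, with medians of 0.11, 0.29 and 0.15. *Rasa3* was above untreated in all 3 comparisons (0.59, 0.66 and 0.58), opposite to *Rasal2*.

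The counts past 2-fold that follow stand beside 0.992, 0.706 and 0.553% of all genes lower and 0.634, 0.813 and 0.922% higher, and a count of 0 is near them. Of the 12 exhaustion genes, most were below untreated, with *Cd160* after ADU-S100 above it (0.35, 0.04 to 0.66). Their median log2 ratio was -0.57, -0.82 and -0.51, and 1, 0 and 0 passed 2-fold, the 1 being *Tox* after ADU-S100 (-1.19). The 8 naive and memory genes had medians of 0.66, 0.98 and 1.15, with 1, 3 and 6 higher by 2-fold or more. *Klf2*, a transcription factor of resting T cells, was the one above 2-fold in every comparison (1.34, 1.31 and 1.38). Of 8 cytotoxic genes, *Gzma* (granzyme A) alone was higher by 2-fold or more in each comparison (2.56, 2.15 and 2.20). Of 8 regulatory genes 0, 1 and 3 were lower by 2-fold or more, and *Foxp3* was at -0.42, -1.16 and -1.75.

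Of 8 tissue residence genes 7 were compared, and *Cd69* after ADU-S100 (1.09) and *Ccr8* after anti-LTβR (-1.08) passed 2-fold. Of 11 genes of IL-17 and gamma-delta cells 6, 6 and 5 were compared, and *Il17a* after ADU-S100 (1.14) and *Il1r1* after the combination (-1.02) passed 2-fold. Of the T cell activation and cell cycle genes, 0 passed 2-fold in any comparison.

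Genes most like the 4 genes were sought over T cell subsets and NK cells by library, as Pearson r of log2(CPM + 1) over 23 points of at least 20 cells and 8370 genes. These points share libraries and depth, so r is a description. *Lrrc9* (0.923), *Glp1r* (0.907) and *D430041D05Rik* (0.906) were most like *Galnt18*. *Gm44174* (0.936), *Smyd1* (0.881) and *Kif13b* (0.868) were most like *Tmprss6*, and *Rgs8* (0.853), *Atp2b2* (0.850) and *Smpdl3b* (0.839) were most like *Tmem273*. *Snx10* (0.90), *Cd8a* (0.865) and *Lmtk3* (0.856) were most like *Rasal2*. Among the 4 genes themselves r was between 0.605 for *Tmem273* with *Rasal2* and 0.811 for *Tmprss6* with *Rasal2*. *Lrrc9* was at 31.2, 4.74, 17.9 and 15.5 CPM in T class cells, with the untreated library highest and ADU-S100 lowest, as for *Galnt18*.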

How the data were processed

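Single-cell RNA-seq of CD45+ cells was measured in 4 libraries, 1 per group. The authors deposited UMI counts per gene and cell, made with Cell Ranger (the labels give 7.1.0 and mm10, the matrix header gives 8.0.1), and pooled the tumors of a group. The labels and the methods of the study name different versions of the 5′ kit. The cell names of the authors were not used here.

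From these counts, cells with 300 to 5000 genes and at most 6% mitochondrial UMIs were kept. The automatic threshold of Scrublet marked 0, 0, 1 and 0 cells, so the cells of the highest doublet score were removed instead, up to 0.4% per 1000 deposited cells, which left 7524, 13444, 13223 and 14667 cells. Clustering with scanpy 1.11.5 and leidenalg 0.10.2 used 2000 variable genes, 30 components, 20 neighbors and resolution 1, and gave 33 clusters, of which 8 were T class by marker genes. T cell subset genes were counted as T markers in naming clusters, a choice made after the data were seen. Subsets were set in the order gamma-delta (*Trdc* without α or β chain constant genes), *Foxp3* positive (without *Cd8a* or *Cd8b1*), CD8 and CD4.

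UMIs were summed per library and cell group. Levels (CPM) have exact Poisson, shares exact Clopper-Pearson and ratios exact conditional binomial 95% intervals, computed with scipy 1.17.1. All intervals and the limits from 3 counts cover counting error only. Since each group is 1 library, groups were compared without a test. Genes needed 200 UMIs over both libraries to be compared. Scripts were tested on made-up counts of known ratio. The 4 genes and the lists were chosen with earlier results of these data known. Named genes are the 4 genes, list genes past 2-fold or standing for a list value, the 3 genes most like each, and list genes that differ most in cells with a UMI. Promoters came from RefSeq, GRCm38.p6. 1 gene of the naive and memory list is counted in the list but its own values are not reported here.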

Additional observations from a re-analysis of the deposited data

Results flagged for a closer look

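For *Tmprss6*, the log2 ratio of ADU-S100 to untreated was 1.06 (0.36 to 1.79) in NK cells and -2.41 (-3.05 to -1.82) in CD8 cells, so the same agonist went with opposite directions in the 2 cell types. For *Tmem273*, the ratio of the combination to untreated was 0.74 (0.07 to 1.42) in dendritic cells and -0.51 (-0.94 to -0.10) in CD8 cells. The make-up of the dendritic cells differed, with 35 of 687 untreated and 252 of 1025 combination cells in cluster 22. Each of these ratios rests on 1 library per group, and the difference between the cell types was not tested.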

How the results depend on the processing

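Each of the 12 log2 ratios to untreated in T class cells was recomputed under 17 alternatives, and all 204 values were below 0. Of these, 173 moved by less than the counting interval, 31 moved by more and 0 changed sign. With each cell weighing the same, *Galnt18* gave -5.42, -2.04 and -1.50 (ADU-S100, anti-LTβR, combination). Without the 3 cells with most UMIs it gave -6.43 for ADU-S100 and -1.92 for anti-LTβR. That step takes a larger share of the UMIs from the agonist libraries, so lower ratios follow from it. Thinned to 1000 UMIs, anti-LTβR gave -2.01 for *Galnt18* and -2.56 for *Rasal2*.

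The remaining alternatives were chosen after seeing the data. With the untreated make-up by number of exhaustion genes, a number that depends on depth, anti-LTβR gave -1.24 for *Galnt18*, -1.11 for *Tmprss6* and -1.14 for *Tmem273*. The combination gave -0.52, -0.44, -0.07 and -0.39 for *Galnt18*, *Tmprss6*, *Tmem273* and *Rasal2*. In CD8 cells with 2 or more exhaustion genes, anti-LTβR gave -1.29, -1.05, -0.98 and -1.40 in that order of genes, and the combination gave -0.84 for *Galnt18*, -0.16 for *Tmem273* and -0.44 for *Rasal2*. Without the cluster led by *Galnt18*, that gene gave -3.63, -1.39 and -0.86. Without CD8 cells of *Trbv13-3*, which led only in the untreated library, *Galnt18* gave -1.31 and -0.84 (anti-LTβR, combination), *Tmprss6* -1.76, -0.98 and -0.49, and *Tmem273* -1.03 and -0.15. The cause was not tested. Of 252 other values, 206 were alike and 46 moved.

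No paired analysis was possible because each group is 1 library. Few UMIs limit the precision of the ADU-S100 values, such as the 14 of *Galnt18* in 599 cells.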
